A study of Arabidopsis thaliana with 6 samples.

Results

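Leaves of Arabidopsis thaliana plants that were drying for the third time (S3) were compared with leaves of watered plants (W) across the transcriptome, to give the net state that repeated dehydration had reached. The comparison used 4 of the 6 libraries of the series, 2 replicates of W and 2 of S3. The genes compared were the 18059 of 33555 listed genes (53.8%) whose mean reached 1 FPKM in W or in S3. FPKM, fragments per kilobase of transcript and per unit of mapped fragments, is a transcript level scaled for length and for depth. The other 2 libraries, from the first dehydration (S1), helped to estimate the spread between replicates, and their values are set beside single genes. Both groups were soil-grown plants of the Col-0 ecotype, which the labels also call WS under genotype, grown at 22 °C with 12 h of light a day. W plants were lifted from soil and kept overnight in humid air before sampling. S3 plants were air-dried for 2 h, rehydrated for 22 h, and taken through that cycle again before the last 2 h of drying. The series holds no watered library kept out of soil for as long as S3, so repeated drying and that longer time cannot be told apart. RNA was poly(A)-selected. W reads were longer than S3 reads, and the authors' quantification paired S1 with W and S3 with S1, so the W and S3 levels may come from separate runs, whose scaling to each other is not given in the sources used here.

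Drying leaves make the hormone abscisic acid (ABA). ABA bound to its PYR/PYL receptors blocks PP2C phosphatases, which frees SnRK2 kinases to activate ABF factors, and these bind promoters that carry the core ACGTG. Genes known to follow include late embryogenesis abundant (LEA) proteins and dehydrins, hydrophilic proteins that protect cells short of water, while genes for photosynthesis, ribosomes and growth are known to be expressed less in stressed leaves.

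In S3, 3834 genes were higher and 3579 were lower than in W, and the remaining 10646 did not pass. A gene was called at an adjusted p of at most 0.05 and a log2 fold change of size 1 or more, from limma on log2(FPKM + 1) with Benjamini-Hochberg adjustment over the 18059 genes. The called genes were 41.0% of those tested, 21.2% higher and 19.8% lower. Genes called higher had a median level of 5.53 FPKM in W and 27.5 FPKM in S3. Genes called lower went the other way, from a median of 20.6 FPKM in W to 4.75 FPKM in S3. A log2 fold change of at least 3 in size was reached by 691 genes called higher and 366 called lower, and one of at least 5 by 178 and 45. The median log2 fold change of all genes was 0.06. None of the called genes had W and S3 replicates that overlapped, which adds no support, as the criteria for a call favour such genes. With 2 libraries a group, an exact two-sided permutation test of a single gene cannot go below p = 0.333, so the calls rest on a spread shared across genes. The methods describe the replicates of a condition as independent biological samples. Between S3 and S1, 1420 of the same genes (7.86%) were higher and 1526 (8.45%) were lower in S3.

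**Figure D1:**
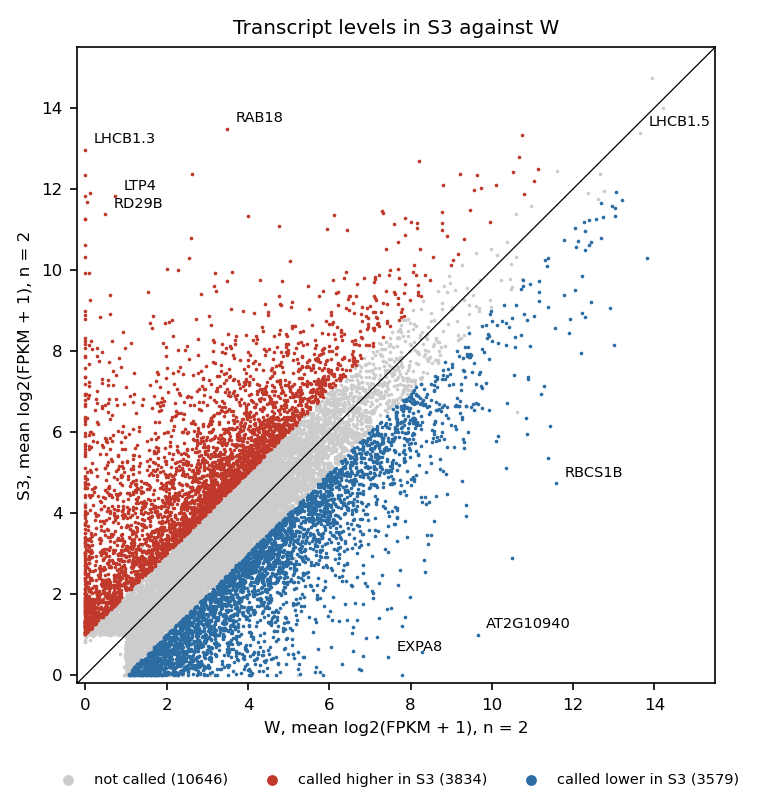
Mean level of each of the 18059 genes in S3 (vertical axis) against W (horizontal axis), both as log2(FPKM + 1) over 2 libraries. Red points are the 3834 genes called higher in S3, blue points the 3579 called lower and grey points the 10646 not called. The column of red points at 0 on the horizontal axis holds genes listed at 0 in both W libraries, LHCB1.3 among them.

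Among called genes above 0 in all 4 libraries, the secreted lipid transfer protein gene LTP4 and the ABA-responsive gene RD29B were among the 12 with the largest rises. Genes listed at 0 in both W libraries are described further on. LTP4 (AT5G59310) was at 0.422 and 0.954 FPKM in the W replicates and 3739.7 and 3482 in S3, a log2 fold change of 11.08 ± 0.21 (SE, n = 2 a group, limma adjusted p = 5.62e-07). Its neighbour LTP3 (AT5G59320) went from 2.25 and 10.5 to 5622 and 4985 FPKM. RD29B (AT5G52300), a hydrophilic protein long used as a reporter of ABA responses, was at 0.320 and 0.488 FPKM in W and 2539.8 and 2784 in S3, with a log2 fold change of 10.89 ± 0.30 (limma adjusted p = 1.59e-06). The rule that picked these genes asked for W and S3 replicates without overlap, so the gap between them adds no support. RAB18 (AT5G66400), an ABA-inducible dehydrin, was at 10.5 and 10.0 FPKM when watered, 332 and 337 in S1 and 10796 and 12194 in S3. Its log2 fold change between S3 and W was 9.99 ± 0.13 (limma adjusted p = 2.09e-07). By mean level RAB18 ranked 8582 among all genes in W and 3 in S3. HAI1 (AT5G59220), a PP2C phosphatase of the ABA pathway, was at 0.340 and 0.712 FPKM in W and 641 and 702 in S3, with S1 at 400.4 and 574. LEA4-5 (AT5G06760), an LEA protein, rose from 0.0683 and 0.112 to 581 and 644 FPKM.

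Other genes with rises of this size carried varied annotations. AT4G33150, the lysine-ketoglutarate reductase/saccharopine dehydrogenase that begins lysine breakdown, was at 1.96 and 4.55 FPKM in W and 1051 and 1024 in S3. AT2G41190, annotated as an amino acid transporter, rose from 2.93 and 7.57 to 1159.9 and 1369.7 FPKM. AT1G62510 and AT2G37870 belong to the same broad family of small lipid transfer proteins as LTP4. AT1G62510 reached 1734 and 1790.3 FPKM from 4.32 and 5.80, and AT2G37870 reached 461 and 453 from 0.366 and 0.201. AT5G39520, a protein of unknown function, was at 0.296 and 0.779 FPKM when watered, 18.2 and 37.4 in S1 and 557 and 408 in S3. DIP2 (AT5G03210), which the annotation names an E3 ubiquitin ligase, was already at 416 and 540.4 FPKM in S1 and at 816 and 603 in S3, against 1.09 and 3.04 in W.

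**Figure D2:**
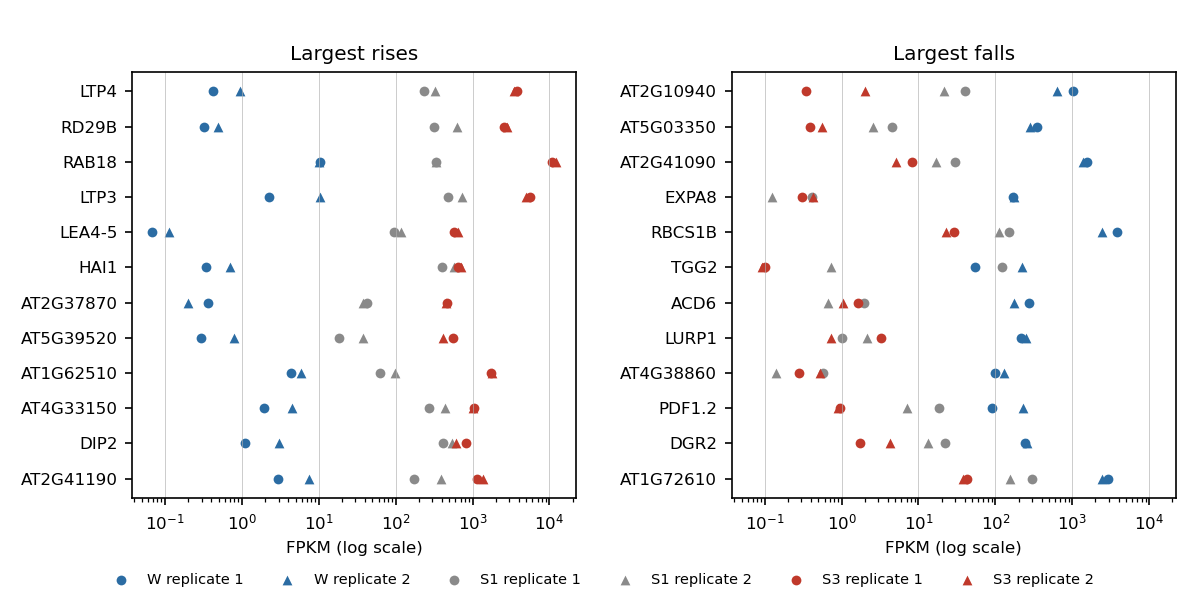
FPKM (log axis) of the 12 genes with the largest rises and the 12 with the largest falls between W and S3, among called genes above 0 in all 4 libraries. Circles are replicate 1 and triangles replicate 2 of W (blue), S1 (grey) and S3 (red). W and S3 are far apart in both panels, with TGG2 and LTP3 showing a wide gap between the W replicates.

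The promoters of 3 of these protective genes are printed because they are among the steepest rises, and that of HAI1 because it rose steeply without the motif they share. Each runs from 250 bases before to 50 bases after the annotated gene start, in RefSeq's annotation of TAIR10.1. Capitals mark ACGTG, the core of the ABA-responsive element, and GGCCCA, a motif known from ribosomal protein promoters, each in either orientation (CACGT and TGGGCC on the opposite strand).
RAB18, chr5:26519398-26519697, minus strand: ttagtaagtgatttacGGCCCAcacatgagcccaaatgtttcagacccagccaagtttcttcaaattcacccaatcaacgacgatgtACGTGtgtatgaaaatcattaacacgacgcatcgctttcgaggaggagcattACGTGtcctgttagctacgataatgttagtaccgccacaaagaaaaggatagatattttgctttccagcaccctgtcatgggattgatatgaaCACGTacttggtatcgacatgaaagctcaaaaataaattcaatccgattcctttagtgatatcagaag
RD29B, chr5:21236771-21237070, plus strand: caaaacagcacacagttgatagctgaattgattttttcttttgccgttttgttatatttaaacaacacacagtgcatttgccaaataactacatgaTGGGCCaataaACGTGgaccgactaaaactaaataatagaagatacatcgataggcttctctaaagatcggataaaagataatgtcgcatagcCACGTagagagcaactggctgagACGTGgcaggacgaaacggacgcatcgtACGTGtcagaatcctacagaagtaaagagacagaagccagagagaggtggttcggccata
LEA7, chr1:19619474-19619773, plus strand: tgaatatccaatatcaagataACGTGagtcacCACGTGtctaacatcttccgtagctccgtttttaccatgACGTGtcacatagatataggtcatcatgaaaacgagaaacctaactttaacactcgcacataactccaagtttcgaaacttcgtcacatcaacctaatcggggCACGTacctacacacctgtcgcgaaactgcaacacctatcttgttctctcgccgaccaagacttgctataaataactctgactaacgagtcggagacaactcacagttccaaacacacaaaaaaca
HAI1, chr5:23896890-23897189, minus strand: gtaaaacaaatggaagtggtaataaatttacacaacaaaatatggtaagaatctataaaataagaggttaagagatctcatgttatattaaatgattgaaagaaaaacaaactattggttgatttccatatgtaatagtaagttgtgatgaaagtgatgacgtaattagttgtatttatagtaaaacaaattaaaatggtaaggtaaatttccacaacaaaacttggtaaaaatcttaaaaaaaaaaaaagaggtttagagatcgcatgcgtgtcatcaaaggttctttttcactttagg
ACGTG occurs 3 times in the RAB18 window, 4 times in RD29B and 5 times in LEA7, counting both strands, so that the palindrome CACGTG counts as 2. The HAI1 window holds none of the motifs searched. Over the 17921 promoters of tested genes that the annotation gave, 27.8% held ACGTG on either strand. The share was 38.9% for genes called higher, 24% for genes called lower and 25.2% for genes not called, and 50.6% for the 680 with a log2 rise of at least 3. In the LEA and cold-regulated list, 16 of 20 promoters (80%) held it. The motif was not confined to rising genes. It stood in 50% of light-harvesting and 50% of photosystem subunit promoters, lists that fell. For genes with a log2 fall of at least 3 the share was 29.6%. The longer form ACGTGNC, where N is any base, stood in 12.3% of all promoters, 19% of those called higher and 10.1% of those called lower. It stood in 60% of the LEA and cold-regulated list, 40% of light-harvesting and 45.5% of photosystem subunit promoters. The evening element AAAATATCT, a clock-associated motif, was near the overall share of 3.15% in both directions, at 3.66% and 3.33%. A match is a stretch of letters and says nothing of binding.

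LEA proteins, dehydrins and cold-regulated genes rose together. Of the 20 genes of this list, 19 were called higher (95%, against 21.2% of all genes) and none lower, with a median log2 fold change of 4.79 against 0.06 for all genes. Together they made up 0.510% and 0.583% of the summed FPKM in the W replicates and 4.84% and 5.30% in S3. LEA7 (AT1G52690), an LEA protein, was at 0.0541 and 0 FPKM in W and 2850.2 and 3811 in S3. The dehydrin COR47 (AT1G20440) was at 238 and 359 FPKM when watered, 7499 and 8748 in S1 and 6385 and 6694 in S3, where both replicates were below both S1 replicates. COR15A, a chloroplast protein that protects membranes in the cold, rose from 829.9 and 873 to 4158 and 4108 FPKM. COR15B, its close relative, was the exception, at 710.2 and 671 FPKM in W and 578 and 538 in S3 (log2 fold change -0.31, limma adjusted p = 0.11), although S1 stood at 2301 and 1979.6. Genes best known from maturing seeds reached low levels: EM1 was listed at 0 in both W libraries and was at 12.4 and 12.6 FPKM in S3, and EM6 at 11.0 and 9.77. LEA18 and the LEA gene AT3G17520 were also listed at 0 in both W libraries and were at 47.5 and 51.6 and at 251 and 408 FPKM in S3. Between S3 and S1, 10 of the 20 were called higher, against 7.86% of all genes, and 3 lower, against 8.45%.

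Within the ABA pathway the phosphatases and the enzymes of synthesis and breakdown rose while 3 receptors fell. Of 32 genes tested, 22 were called higher (68.8%, against 21.2% of all genes) and 3 lower (9.38%, against 19.8%). The median log2 fold change was 2.26. NCED3 (AT3G14440), the dioxygenase that limits ABA synthesis, rose from 4.03 and 5.46 to 246 and 308 FPKM, a log2 fold change of 5.60 ± 0.19 (limma adjusted p = 2.69e-06). AAO3, the aldehyde oxidase of the last step of synthesis, rose from 5.88 and 6.53 to 37.7 and 47.1. CYP707A3, a hydroxylase that breaks ABA down, rose from 0.440 and 0.768 to 54.9 and 64.5 FPKM. CYP707A1, CYP707A2 and CYP707A4 of the same family were called higher too. The PP2C phosphatases, which hold the pathway off until ABA arrives, were called higher at ABI1, ABI2, HAB1, HAB2, PP2CA, HAI1, HAI2 and HAI3. HAB1 (AT1G72770) went from 2.33 and 3.28 to 256 and 332 FPKM, HAI2 (AT1G07430) from 0.383 and 0.585 to 156 and 151, and PP2CA (AT3G11410) from 23.6 and 28.8 to 631 and 669. The receptors moved in both directions. PYL4 was at 11.4 and 9.66 FPKM in W and 0.767 and 0.625 in S3, and PYL1 and PYL8 were also called lower. PYL7 rose from 17.4 and 18.8 to 52.5 and 62.6 FPKM and PYL9 from 8.53 and 11.3 to 24.5 and 23.3, while PYR1 was at 26.6 and 30.8 in W and 40.8 and 31.9 in S3 and was not called. Of the kinases, OST1, known for closing stomata, rose from 4.51 and 6.74 to 30.7 and 26.9 FPKM. ABF2, ABF3 and ABF4, the factors downstream, were called higher, with ABF3 going from 11.2 and 12.7 to 294 and 322 FPKM.

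Most of the stress transcription factors tested rose. Of 29 genes, 23 were called higher (79.3%, against 21.2% of all genes) and 2 lower (6.9%, against 19.8%). The median log2 fold change was 3.18. HB7 (AT2G46680), a homeodomain factor induced by ABA, was at 2.68 and 5.38 FPKM in W and 1016 and 1019.9 in S3, a log2 fold change of 7.72 ± 0.28 (limma adjusted p = 3.31e-06). Its relative HB12 (AT3G61890) went from 4.66 and 8.08 to 692 and 653 FPKM. RD26 (AT4G27410), a NAC factor of the ABA response, rose from 5.37 and 12.7 to 676 and 741 FPKM. ANAC019, another NAC factor, stood at 0.452 and 1.66 FPKM in W and 243 and 291 in S3, below S1 at 644 and 545. MYB2 and MYB102, factors of stress and wound responses, rose from 0.0949 and 0.156 to 38.2 and 35.8 FPKM and from 0.545 and 0.480 to 69.5 and 90.3. DREB2A, a factor of ABA-independent dehydration responses, rose from 2.38 and 2.33 to 53.1 and 58.4 FPKM. The cold factors CBF1 and CBF3 were not called, and CBF2 was lower in S3, at 2.96 and 2.43 FPKM against 5.94 and 8.45 in W.

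Genes that make compatible solutes and genes of leaf senescence rose in the same libraries. Of 11 osmolyte genes, 8 were called higher (72.7%, against 21.2% of all genes) and 1 lower (9.09%, against 19.8%). The median log2 fold change was 2.38. P5CS1 (AT2G39800), the rate-limiting enzyme of proline synthesis, rose from 75.3 and 98.3 to 1739.5 and 2396 FPKM, and GOLS2 (AT1G56600), which makes galactinol for raffinose sugars, from 1.00 and 6.92 to 291 and 254. BAM1, a chloroplast beta-amylase, went from 17.8 and 19.3 to 779.8 and 957 FPKM. BAM5 alone was called lower, at 1.54 and 2.92 FPKM in W and 0.279 and 0.582 in S3, after 142 and 106 in S1. Of 14 senescence genes, 12 were called higher (85.7%, against 21.2% of all genes) and none lower, with a median log2 fold change of 3.51. ASN1 (AT3G47340), a dark-inducible asparagine synthase, rose from 0.242 and 0.271 to 218 and 214 FPKM. SAG29, a sugar transporter of the SWEET family, was at 0.0402 and 0.0331 FPKM when watered, 0.223 and 1.06 in S1 and 88.5 and 147 in S3. SGR1 and PPH, which act in chlorophyll breakdown, rose from 5.87 and 7.36 to 123 and 118 FPKM and from 27.5 and 33.8 to 265 and 226, and the NAC factor ORE1 from 0.405 and 1.81 to 130.1 and 145.

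**Figure D3:**
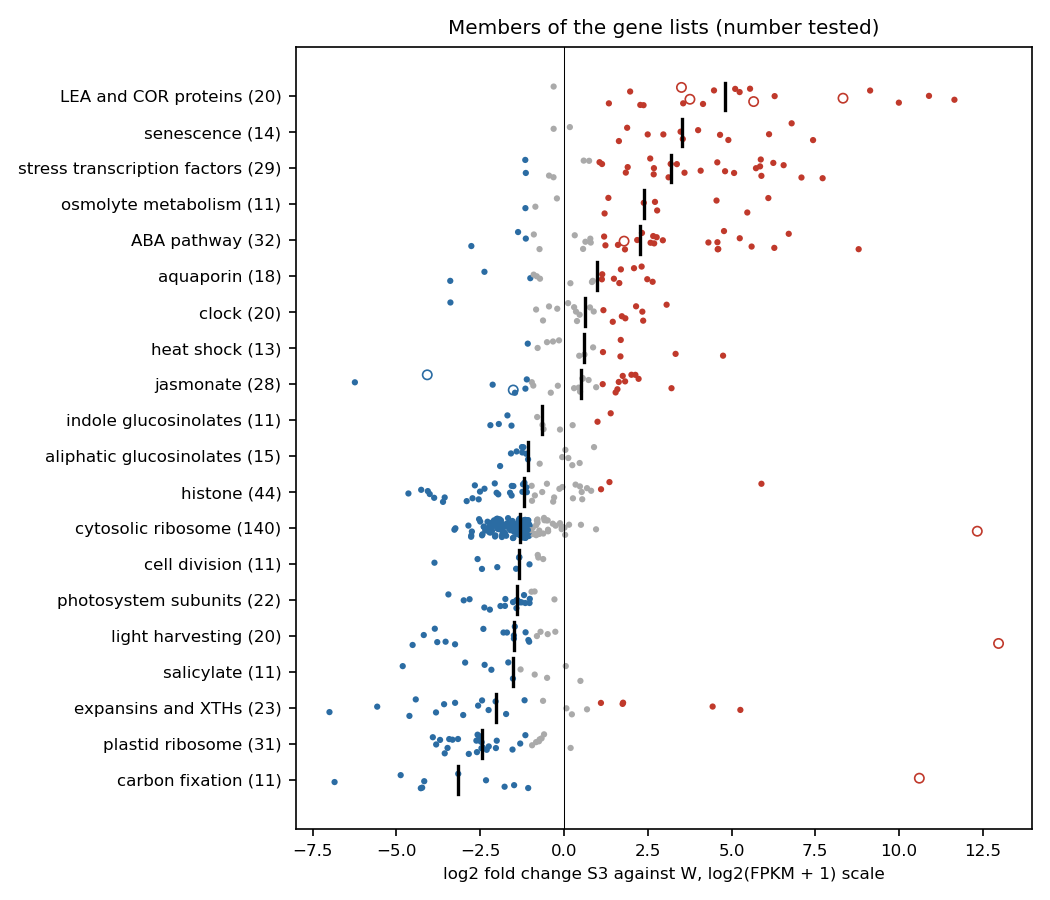
Log2 fold change between S3 and W of the tested members of 20 gene lists (points, on the log2(FPKM + 1) scale), with each list's median as a black bar and the number tested in brackets. Red points were called higher, blue lower and grey were not called, and open points are genes at 0 in both libraries of a group. LEA and cold-regulated genes have a median of 4.79 and the plastid ribosome one of -2.46.

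Many of the most abundant transcripts of watered leaves lost their place. Of the 10 genes with the highest mean FPKM in W, 3 were among the 10 highest in S3, and of the 50 highest, 17. The 3 were AT2G01021, MT1A and LHCB1.5, at ranks 1, 2 and 4 in W and 2, 1 and 4 in S3, and none was called. LHCB1.2 went from rank 3 to 86, while its near-identical copy LHCB1.3, listed at 0 in W, stood at rank 6 in S3. The values of these copies are uncertain one by one, as described below. Genes of the photosynthesis lists filled 36 of the 50 highest places in W and 15 in S3, whereas LEA and cold-regulated genes filled none in W and 8 in S3. Light-harvesting genes, whose proteins bind chlorophyll around the photosystems, were called lower at 15 of 20 members (75%, against 19.8% of all genes). Only 1 was called higher, and the median log2 fold change was -1.49. Their share of the summed FPKM was 12.4% and 11.3% in the W replicates and 5.07% and 5.52% in S3. LHCB6 (AT1G15820), a minor antenna protein of photosystem II, was at 5992 and 5227 FPKM in W and 544 and 637 in S3, a log2 fold change of -3.25 ± 0.22 (limma adjusted p = 2.55e-05). LHCB3 (AT5G54270), a subunit of the major antenna, was at 10238 and 8798 FPKM when watered, 2532 and 2146 in S1 and 3314 and 3433 in S3, so that S3 lay between W and S1. Of the photosystem I antenna genes, LHCA1 (AT3G54890) was at 9119.8 and 7666 FPKM in W and 2963 and 2982 in S3, and LHCA2 and LHCA3 were not called. LHCB1.5 (AT2G34420) of the major antenna, at 13428 and 12215 FPKM in W and 11129.8 and 10315 in S3, was not called (log2 fold change -0.26 ± 0.22, limma adjusted p = 0.32).

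The single light-harvesting gene called higher, LHCB1.3 (AT1G29930), was listed at 0 in both W libraries and at 7244 and 8825 FPKM in S3, with S1 at 14866 and 11839.7. It is a near-identical neighbour of LHCB1.1 and LHCB1.2, and reads shared among the copies could be assigned to any of them, so that the values of these 3 genes are uncertain one by one. LHCB1.2 (AT1G29910) was at 16884 and 12356 FPKM in W and 1007 and 1551 in S3, and LHCB1.1 (AT1G29920) at 8892 and 6660.5 in W against 365 and 776 in S3. Summed over the 3 copies, the level was 25776 and 19016 FPKM in W and 8616 and 11152 in S3. Over the 5 LHCB1 genes the share of the summed FPKM went from 4.94% and 4.20% to 2.48% and 2.72%. Among Rubisco small subunit genes, RBCS1A (AT1G67090) was also listed at 0 in both W libraries and was at 1392 and 1732 FPKM in S3. Why it was listed at 0 in W was not tested. Summed over its 4 genes, the small subunit was at 18548 and 13809 FPKM in W and 1847 and 2414 in S3. RBCS1A counts as 0 in the W sums, although it was at 9516.5 and 6085 FPKM in S1, so the sums do not settle its level in W.

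**Figure D4:**
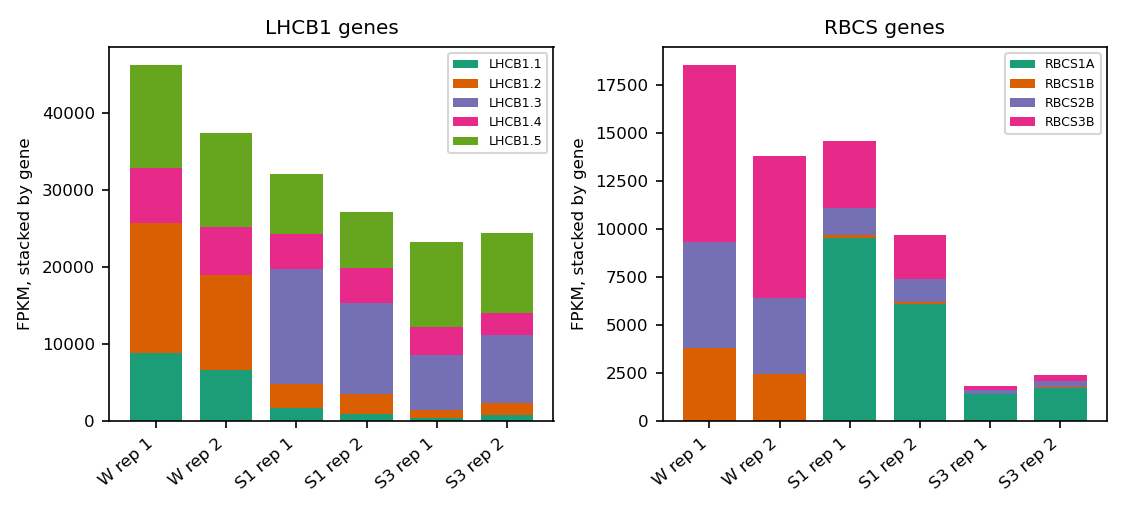
FPKM of the 5 LHCB1 genes (left) and the 4 Rubisco small subunit (RBCS) genes (right) in each of the 6 libraries, stacked by gene from 0. LHCB1.3 and RBCS1A have no height in the W bars and take most or much of the stack in the S1 and S3 bars, while the whole stack is lower in both S3 libraries than in both W libraries.

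The photosystem subunits and the enzymes of carbon fixation fell as well. Of 22 nuclear genes for photosystem subunits, 19 were called lower (86.4%, against 19.8% of all genes) and none higher, with a median log2 fold change of -1.40. With a correction for transcript length and GC content, 11 were called. PSAH2 (AT1G52230), a subunit of photosystem I, was at 4172 and 3501 FPKM in W and 337 and 363 in S3. PSBQ1 (AT4G21280) of the oxygen-evolving complex was at 3224 and 2833 in W and 361 and 399.6 in S3, and PSBS (AT1G44575), which dissipates excess light, at 2096 and 1842 in W against 242 and 320.0 in S3. PSBR was at 6556 and 6354 FPKM in W and 5576 and 5046 in S3 and was not called, and the sign of its log2 fold change, -0.28, turned to 0.15 with that correction. Of 11 genes of carbon fixation, 10 were called lower (90.9%, against 19.8% of all genes), and the other was RBCS1A. The list held 3.62% and 3.13% of the summed FPKM in W and 0.556% and 0.720% in S3, with a median log2 fold change of -3.15. RBCS3B (AT5G38410) was at 9204 and 7429 FPKM in W and 227 and 349 in S3, and RBCS1B (AT5G38430) at 3824 and 2446 in W against 29.2 and 22.5 in S3. With RBCS1A listed at 0 in W, the values of the RBCS genes are uncertain one by one. How reads were assigned among these genes was not tested. GAPA2 (AT1G12900), a chloroplast glyceraldehyde 3-phosphate dehydrogenase, was at 2526 and 2242 FPKM in W and 109 and 138 in S3. CA1, the chloroplast carbonic anhydrase, was at 2673 and 2340.0 FPKM when watered, 1334 and 1022 in S1 and 106 and 181 in S3. Rubisco activase (RCA) fell less, from 5014 and 4788 to 2147 and 2550.0 FPKM, and in S3 both replicates were above both S1 replicates, at 1730.2 and 1609.

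**Figure D5:**
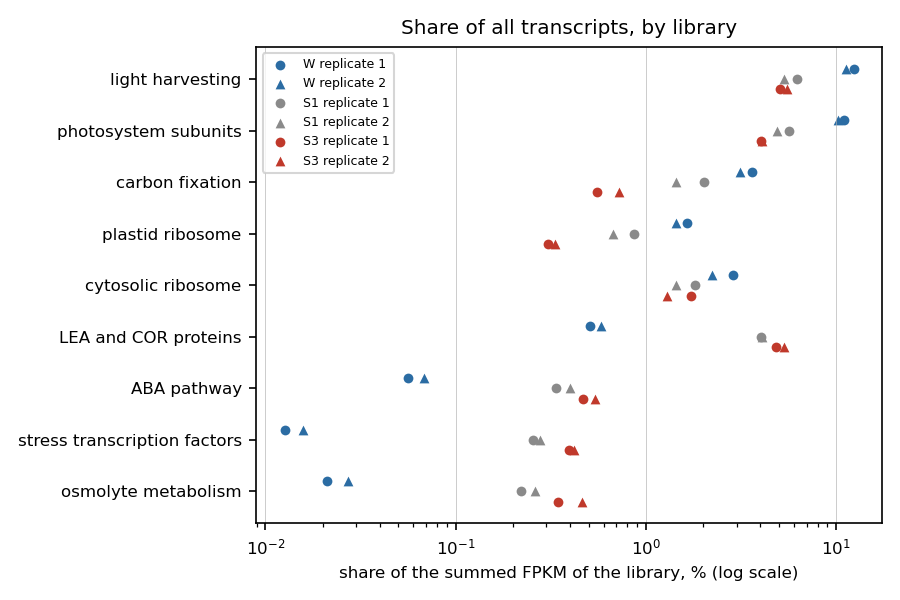
Share of the summed FPKM of each library, in percent, held by the gene lists, on a log axis, with circles for replicate 1 and triangles for replicate 2 of W (blue), S1 (grey) and S3 (red). Light-harvesting genes went from 12.4% and 11.3% in W to 5.07% and 5.52% in S3, and LEA and cold-regulated genes from 0.510% and 0.583% to 4.84% and 5.30%.

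Ribosomal protein genes fell in both compartments, with the larger median fall in the plastid list. Of 31 genes for plastid ribosomal proteins, 24 were called lower (77.4%, against 19.8% of all genes) and none higher, with a median log2 fold change of -2.46. Of 140 annotated as cytosolic, 110 were called lower (78.6%) and 1 higher, with a median of -1.32. The difference between the lists was not tested. RPL27 (AT5G40950) of the plastid ribosome was at 506 and 439 FPKM when watered, 145 and 93.6 in S1 and 30.2 and 30.5 in S3, a log2 fold change of -3.91 ± 0.21 (limma adjusted p = 1.17e-05). RPL15 (AT3G25920), also of the plastid ribosome, went from 687 and 589 to 46.6 and 60.5 FPKM with S1 at 356 and 276. Between S3 and S1, 23 of the 31 plastid members were called lower, against 8.45% of all genes, while the 12 of 140 cytosolic members called lower are close to that share. Among the cytosolic genes, AT5G60670 (ribosomal protein L11 family) was at 91.1 and 60.2 FPKM in W and 8.11 and 5.95 in S3, and AT1G07070 (L35Ae family) at 53.8 and 29.9 in W against 5.48 and 4.03 in S3. EMB3136 (AT5G13510), an L10 family protein that the rule placed with the cytosolic genes although it is known from plastids, fell from 526 and 435 to 46.8 and 50.9 FPKM. The 1 member called higher, AT3G08520, belongs to the near-identical L41 genes and was listed at 0 in both W libraries.

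The promoters of 2 of the cytosolic genes with the steepest falls are shown for the motifs that ribosomal protein genes share. Capitals mark GGCCCA and AAACCCTA, known as site II and telobox motifs of ribosomal protein promoters, in either orientation, and the windows are drawn as above.
AT5G60670, chr5:24381550-24381849, minus strand: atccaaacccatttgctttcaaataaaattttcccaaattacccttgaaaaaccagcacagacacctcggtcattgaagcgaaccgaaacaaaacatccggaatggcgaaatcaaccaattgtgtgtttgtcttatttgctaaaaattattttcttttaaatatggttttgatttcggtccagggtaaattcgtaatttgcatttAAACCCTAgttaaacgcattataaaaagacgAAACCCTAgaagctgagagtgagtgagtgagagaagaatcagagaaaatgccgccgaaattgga
AT1G07070, chr1:2168311-2168610, plus strand: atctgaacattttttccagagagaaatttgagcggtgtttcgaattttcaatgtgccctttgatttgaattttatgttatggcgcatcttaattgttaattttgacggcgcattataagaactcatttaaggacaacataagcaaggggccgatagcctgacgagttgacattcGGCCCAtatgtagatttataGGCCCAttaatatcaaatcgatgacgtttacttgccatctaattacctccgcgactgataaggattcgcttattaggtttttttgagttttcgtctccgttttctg
AAACCCTA stands 2 times in the first of these windows and GGCCCA 2 times in the other. Among promoters of the cytosolic list, 67.9% held GGCCCA and 49.3% held AAACCCTA, against 19.6% and 5.68% of all promoters of tested genes. For plastid ribosomal protein genes the shares were 29% and 9.68%. Among genes called lower, 22.6% held GGCCCA and 7.2% AAACCCTA, near the 21.6% and 6.22% of genes not called. Among genes called higher the shares were 11.4% and 2.76%. For genes with a log2 fall of at least 3 they were 11.5% and 4.11%.

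Genes of DNA replication, histones and the cell cycle were lower in S3. Of 11 cell division genes, 8 were called lower (72.7%, against 19.8% of all genes) and none higher, with a median log2 fold change of -1.34. A minimum of 5 FPKM in place of 1 left members with lower means, such as CYCD3;1, untested. Of the members still tested, 3 were called lower. PCNA1 (AT1G07370), the sliding clamp of DNA polymerase, was at 18.5 and 12.4 FPKM when watered, 3.32 and 1.66 in S1 and 0.101 and 0.125 in S3. MCM2, a subunit of the replicative helicase, was at 7.27 and 4.93 FPKM in W and 0.177 and 0.173 in S3, and the cyclin CYCD3;1 at 5.60 and 3.07 in W against 0.153 and 0.479 in S3. In bulk leaves, fewer dividing cells and less RNA per cell cannot be told apart. Of 44 histone genes, 25 were called lower (56.8%, against 19.8% of all genes) and 3 higher (6.82%, against 21.2%). The median log2 fold change was -1.20. The H3 genes AT5G65360, AT1G09200 and AT5G10390 led the falls, and as near-identical copies they can share reads. AT5G65360 was at 105 and 65.5 FPKM in W and 2.14 and 2.63 in S3. The linker histone HIS1-3 (AT2G18050), known to be drought-inducible, went the other way, at 1.76 and 4.66 FPKM when watered, 18.4 and 15.2 in S1 and 239 and 228 in S3, a log2 fold change of 5.89 ± 0.31 (limma adjusted p = 1.11e-05).

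Many cell wall loosening genes fell. Of 23 expansins and xyloglucan endotransglucosylase/hydrolases (XTH), 14 were called lower (60.9%, against 19.8% of all genes), with a median log2 fold change of -2.04 for the list. The 5 called higher (21.7%) are close to the 21.2% of all genes. EXPA8 (AT2G40610), an expansin, was at 171 and 176 FPKM when watered, 0.407 and 0.123 in S1 and 0.307 and 0.427 in S3, a log2 fold change of -6.99 ± 0.15 (limma adjusted p = 8.39e-07). EXPA1 was at 115 and 119.8 FPKM when watered, 75.2 and 67.0 in S1 and 3.50 and 4.21 in S3. XTH31 (AT3G44990) was at 54.5 and 43.8 FPKM in W and 0.0776 and 0.0239 in S3. EXPA16 and XTH22, a touch-inducible XTH, rose from 1.67 and 1.58 to 93.8 and 106 FPKM and from 6.98 and 5.95 to 150.5 and 170.5. EXPA10 was at 9.03 and 7.29 FPKM in W and 10.2 and 18.2 in S3 and was not called, while S1 stood at 982 and 562.

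The largest falls among called genes above 0 in all 4 libraries were also in genes of varied annotation. AT2G10940, a protein of the lipid transfer family, was at 1024 and 638 FPKM when watered, 39.8 and 21.3 in S1 and 0.342 and 1.99 in S3, a log2 fold change of -8.66 ± 0.45 (limma adjusted p = 1.05e-05). AT5G03350, a legume-type lectin, was at 343 and 284 FPKM in W and 0.390 and 0.558 in S3, and AT2G41090, a calcium-binding EF-hand protein, at 1532 and 1374 in W against 8.18 and 5.07 in S3. ACD6 (AT4G14400), an ankyrin protein that promotes salicylate-dependent defence, fell from 273 and 177 to 1.64 and 1.03 FPKM. LURP1, a gene of resistance to downy mildew, fell from 216 and 249 to 3.25 and 0.719 FPKM with S1 at 1.02 and 2.16. AT4G38860, a SAUR-type auxin-responsive gene, was at 98.5 and 128 FPKM in W and 0.283 and 0.523 in S3, and DGR2 (AT5G25460), of unknown function, at 243 and 259.5 in W against 1.72 and 4.28 in S3. The germin-like gene AT1G72610 fell from 2938 and 2441 to 42.5 and 38.1 FPKM. Its relative GER3 (AT5G20630) was at 375 and 128 FPKM in W and listed at 0 in both S3 libraries, as were the precursor of miR157c (at 45.1 and 69.6 in W), AT3G22235, a cysteine-rich transmembrane protein (at 27.1 and 23.0), and the snoRNA SNOR77 (at 23.4 and 19.2). TGG2 (AT5G25980), a myrosinase that activates glucosinolates, varied between replicates, at 54.3 and 219.7 FPKM when watered, 121 and 0.738 in S1 and 0.10 and 0.093 in S3. Its limma adjusted p was 0.0122, and it was 0.0784 without W replicate 2, 0.0747 without S3 replicate 1 and 0.0754 without S3 replicate 2.

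Several salicylate genes were lower, and S3 replicates disagreed on the pathogenesis-related ones. Of 11 genes, 6 were called lower (54.55%, against 19.8% of all genes) and none higher, with a median log2 fold change of -1.52. WRKY70 (AT3G56400), a factor that promotes salicylate responses, was at 148 and 163 FPKM in W and 5.19 and 4.04 in S3, and EDS1 (AT3G48090), a hub of basal defence, at 26.5 and 25.4 in W against 4.86 and 5.15 in S3. ICS1, the isochorismate synthase that makes salicylate, fell from 11.3 and 11.6 to 3.07 and 3.60 FPKM. PR5 was at 131 and 112 FPKM in W and 30.5 and 6.97 in S3, called lower with S3 replicates far apart. PR1 was at 3.93 and 22.2 in W and 8.24 and 1.06 in S3, and PR2 at 31.3 and 24.4 in W against 61.2 and 13.3 in S3, and in both the groups overlapped.

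Many jasmonate genes stood far above both W and S3 in the first dehydration. Of 28 genes, 10 were called higher than in W (35.7%, against 21.2% of all genes) and 7 lower (25%, against 19.8%), with a median log2 fold change of 0.52. Their median was 3.77 between S1 and W and -3.48 between S3 and S1, comparisons that share libraries with it. AOC2, an allene oxide cyclase of jasmonate synthesis, was at 309 and 295 FPKM when watered, 4342 and 4179.8 in S1 and 166 and 154 in S3, and was not called between S3 and W. OPR3, a later enzyme of synthesis, was at 14.3 and 18.5 FPKM when watered, 571 and 619.8 in S1 and 23.8 and 25.2 in S3. LOX2 and AOS, the lipoxygenase and allene oxide synthase of the first steps, were called lower than in W: AOS was at 166 and 189 FPKM in W and 70.9 and 89.1 in S3. Of the JAZ repressors of jasmonate signalling, JAZ1 (AT1G19180) was at 8.41 and 9.89 FPKM when watered, 638 and 625 in S1 and 79.2 and 108 in S3. JAZ5, JAZ7, JAZ9, JAZ10, JAZ11 and JAZ12 were also called higher, and JAZ2 and JAZ3 were not called. JAZ6 was called lower, at 30.6 and 39.5 FPKM in W and 12.8 and 18.9 in S3. The defensin PDF1.2 (AT5G44420), a marker of joint jasmonate and ethylene responses, was at 90.2 and 229 FPKM in W and 0.959 and 0.888 in S3, and its copy PDF1.2b, at 18.1 and 13.9 in W, was listed at 0 in both S3 libraries.

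Glucosinolate genes, for sulfur-rich defence compounds, were partly lower. Of 15 aliphatic pathway genes, 8 were called lower (53.3%, against 19.8% of all genes) and none higher, with a median log2 fold change of -1.07. In the genes called lower S3 replicate 1 was above S3 replicate 2, and 5 were called without W replicate 2 and 3 without S3 replicate 2. UGT74C1 (AT2G31790), a glucosyltransferase of the pathway, was at 61.2 and 61.5 FPKM in W and 18.6 and 13.2 in S3. CYP79F1, which begins the core pathway, was at 86.6 and 115 in W and 96.8 and 37.1 in S3, and the groups overlapped. Of 11 indole pathway genes, 4 were called lower (36.4%, against 19.8% of all genes), and the 2 called higher (18.2%) are close to the 21.2% of all genes. CYP83B1 (AT4G31500) of the core pathway was at 117 and 89.3 FPKM in W and 22.9 and 20.3 in S3, and IGMT4, a methyltransferase of indole glucosinolates, at 203 and 257 in W against 78.8 and 74.2 in S3.

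Several morning genes of the circadian clock were higher in S3. Of 20 clock genes, 8 were called higher (40%, against 21.2% of all genes) and 1 lower, with a median log2 fold change of 0.62. CCA1 (AT2G46830), a morning MYB factor, was at 3.80 and 5.03 FPKM in W and 37.0 and 52.2 in S3, a log2 fold change of 3.06 ± 0.20 (limma adjusted p = 2.33e-05). LHY, its partner, rose from 0.758 and 0.787 to 2.80 and 5.22 FPKM, PRR9, the earliest of the PRR repressors, from 6.78 and 8.88 to 25.3 and 36.1, and RVE8 from 0.959 and 1.39 to 7.36 and 10.1. The evening gene TOC1 was at 27.2 and 25.3 FPKM in W and 34.9 and 30.6 in S3 and was not called, nor were GI, ELF3, ELF4 and LUX. CHE (AT5G08330), a TCP factor that represses CCA1, was at 102 and 94.2 FPKM in W and 9.27 and 7.70 in S3. The hour of day at which each group was collected is not given in the sources used here, and its part in these values was not tested.

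Many aquaporins, the water channels, were higher in S3. Of 18 genes, 9 were called higher (50%, against 21.2% of all genes), with a median log2 fold change of 1.00 for the list. The 3 called lower (16.7%) are close to the 19.8% of all genes. PIP1;4 (AT4G00430) of the plasma membrane was at 88.2 and 80.5 FPKM when watered, 2779.7 and 3039.8 in S1 and 546 and 519.5 in S3. PIP1;1, PIP1;3 and PIP2;1 were also called higher. PIP2;8 was lower, at 16.2 and 9.64 in W and 0.232 and 0.348 in S3, and so was TIP2;1 of the vacuole, at 442 and 343 in W against 62.4 and 88.8 in S3. Between S3 and S1 no aquaporin was called higher and 10 were called lower, against 8.45% of all genes. Of 13 heat shock genes, 5 were called higher (38.5%, against 21.2% of all genes) and 1 lower. HSP70 (AT3G12580), a cytosolic chaperone, was at 2.18 and 3.42 FPKM when watered, 11.4 and 15.8 in S1 and 99.2 and 100.1 in S3. HSP101, a chaperone that needs heat for strong expression, was at 2.15 and 1.89 in W and 1.26 and 1.57 in S3 and was not called.

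The libraries were checked against markers of other organs and cell types. All 9 root, 9 seed and 4 meristem markers were under 1 FPKM in all 4 libraries, 4, 8 and 3 of them at 0 in each. Of 7 flower markers, 6 were under 1 FPKM in all 4 libraries, and SEP3 was at 0.358 and 0.603 FPKM in W and 3.01 and 1.26 in S3. The 4 guard cell markers summed to 118 and 142 FPKM in W and 28.8 and 32.5 in S3, and most of the W sum was GC1. GC1 was at 96.0 and 118 FPKM in W and 6.70 and 11.7 in S3, and MYB60 at 8.42 and 10.6 in W against 0.842 and 0.989 in S3. FAMA, at 8.10 and 8.73 in W and 5.255 and 5.92 in S3, was not called (log2 fold change -0.516). KAT1 was higher, at 16.0 and 13.9 in S3 against 5.59 and 5.16 in W. The phloem markers SUC2 and APL were called higher, with SUC2, the sucrose carrier of companion cells, going from 52.7 and 44.1 to 224 and 261 FPKM. The part of cell types in the other results was not tested. The sum of FPKM over all genes was between 891240 and 974046 in the 6 libraries, and 21139 to 22457 genes were above 0. The files hold no read counts. The supplement of the study lists fewer reads for each W library than for any S1 or S3 library, in figures not used here.

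Some calls rest on genes that W listed at 0. Of the tested genes, 184 were at 0 in both W libraries, and 160 of these were called higher, 4.17% of the genes called higher. A gene at 0 in both W libraries was tested only where its S3 mean reached 1 FPKM, so it could only be called higher. Of the 160, 97 were under 10 FPKM in S3 and 26 reached 100 FPKM. Genes at 0 in a library but at 100 FPKM or more in another numbered 49 and 34 in W replicates 1 and 2. They numbered 8 and 7 in the S1 libraries, and 7 and 3 in the S3 libraries. The W libraries were also the shallower ones and had the longer reads. The parts of depth and of read length in these zeros were not tested. Transcripts of 100 bases or shorter are poorly measured in FPKM. Of 14 such genes tested, 11 of them snoRNAs, all were at 0 in both W libraries and 11 were called higher. The snoRNAs AT1G74456 and AT2G35744, examples of these, were at 2519 and 2331 and at 2523 and 2335 FPKM in S3. Conversely, 64 tested genes were at 0 in both S3 libraries and 45 of these were called lower. By the same filter they could only be called lower. Of 64 genes of the plastid genome tested, 7 were called higher (10.9%) and 4 lower (6.25%), both below the shares of all genes. Without genes at 0 in 1 group and at 100 FPKM or more in the other, 4 were called higher. Without transcripts of 100 bases or shorter and all genes at 0 in both W libraries, 2 plastid genes were called higher. Of 15 mitochondrial ones, 5 were called higher (33.3%, against 21.2% of all genes). The call rested on both S3 replicates in some of them. Poly(A) selection captures organelle RNA poorly.

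At the expression minimum of 1 FPKM, AT1G34160 was just inside, at 1.01 and 0.991 FPKM in W and 0.474 and 0.472 in S3. AT5G59600 and AT5G04610 were the next inside, at a larger group mean of 1.00 FPKM each. GATA2 was just outside, at 1.16 and 0.836 FPKM in W and 0 and 0.0280 in S3, as were AT1G75060 and AT3G62475.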

How the data were processed

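The deposited values were FPKM per gene. According to the methods, the authors sequenced poly(A)-selected RNA on an Illumina instrument, mapped the reads to TAIR10 with TopHat and Bowtie, and computed FPKM with cuffdiff, pairing S1 with W, and S3 with S1. CASAVA 1.8.2 is named in the submitters' processing notes. The authors' own comparisons hold fold changes and tests, which were not used here. The files hold FPKM and no read counts, so count models could not be used. The supplement of the study lists fewer reads for each W library than for any S1 or S3 library.

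Values were transformed to log2(FPKM + 1), with a pseudocount of 1. Genes with a W or S3 mean of at least 1 FPKM entered limma 3.58.1 (R 4.3.3), with all 6 libraries in 1 fit, an empirical Bayes variance trend and Benjamini-Hochberg adjustment. A fold change on this scale understates the change of low genes. The fit had 3 residual and 3.69 prior degrees of freedom. The code was first run on simulated data with normal noise and few changed genes, which does not show how well the fit suits these data. Gene lists are described by counts and medians, with no test. The members and lists were chosen with earlier results of these data known.

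Named genes were, by rule, the 12 largest rises and falls among called genes above 0 in all 4 libraries, with transcripts over 100 bases and no overlap. To these were added the 5 highest genes at 0 in each group, the 10 largest gains and losses in FPKM, the 4 largest changes and the most abundant member of each list, and the 3 genes on each side of the expression minimum. Further list members were chosen after their values were seen. Names, coordinates and promoters came from RefSeq's TAIR10.1 annotation, which held 97.8% of the listed loci. Alternatives varied the scaling, filter, pseudocount, criteria, libraries and replicate block, and a correction for GC content and length.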

Additional observations from a re-analysis of the deposited data

Results flagged for a closer look

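Of the 638 genes named by the rule or held in a list, 14 were called on one side of W in S1 and on the other side in S3, by fold and adjusted p, and were also called between S3 and S1 in limma's test, genes listed at 0 in both W or both S3 libraries left aside. Over all 18059 genes, those genes included, 84 (0.465%) met the same criteria. CCA1, a morning factor of the clock, was at 1.49 and 1.86 FPKM in S1, 3.80 and 5.03 in W and 37.0 and 52.2 in S3, a log2 fold change between S3 and S1 of 4.07 ± 0.20 (SE, limma adjusted p = 4.79e-05). It was below W in the first dehydration and above W in the third. The same direction was seen in 4 other genes. The log2 fold change between S3 and S1 was 3.32 for PRR9, a clock repressor, 2.2 for IGMT3, a methyltransferase of indole glucosinolates, 2.17 for NFYA10, a subunit of the NF-Y factor, and 2.17 for the small heat shock protein HSP15.7. The other 9 genes went the opposite way, above W in S1 and below W in S3. LOX2, a lipoxygenase of jasmonate synthesis, was at 4763 and 5927 FPKM in S1, 308 and 369 in W and 92.9 and 160.1 in S3, with a log2 fold change between S3 and S1 of -5.43 ± 0.27. The log2 fold change between S3 and S1 was -4.39 for AOS of the same pathway, -3.19 for the repressor JAZ6, -5.57 for VSP1, a jasmonate-induced storage protein, -6.44 for the beta-amylase BAM5 and -2.01 for TIP1;2, an aquaporin of the vacuole. The remaining 3 act in the indole glucosinolate pathway. MYB34, a factor that activates it, was at 47.4 and 53.5 FPKM in S1, 10.1 and 8.39 in W and 1.56 and 2.93 in S3 (log2 fold change -4.02 ± 0.21 between S3 and S1). CYP79B2, its first enzyme, was at 96.3 and 79.7 FPKM in S1, 14.5 and 12.2 in W and 1.86 and 3.85 in S3 (log2 fold change -4.57 ± 0.25). CYP83B1, the next enzyme, was at 229 and 214 FPKM in S1, 117 and 89.3 in W and 22.9 and 20.3 in S3 (log2 fold change -3.30 ± 0.16).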

How the results depend on the processing

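With no criterion on the fold change, S3 exceeded W in 7001 genes and fell short of it in 6309, and the S1 comparison gave 4032 and 3781. Leaving out each library in turn gave 3618 to 3966 genes above W and 3357 to 3823 below it, with 1264 to 1539 above S1 and 1363 to 1704 below it. The correction for GC content and length gave 4406 higher and 2968 lower and moved the median log2 fold change of all genes from 0.06 to 0.20. PSBR, which was not called, then turned from -0.28 to 0.15, with the replicate block as well. The mitochondrial gene ATMG01380, also not called, went from -0.16 to 0.20 without W replicate 2 and to 0.39 without S3 replicate 2, and the lowest value without a library was -0.71. The cause was not tested. Of 136 named genes called, 125 kept the call under each of the 19 settings that tested them. The other 11 lost the call under at least 1, among them LHCA4, PSAO, SSR16, CYP83A1, SOT17, SEP3, TGG2 and 4 organelle genes. Not every setting tested every named gene. Genes without FPKM in either W library, such as LHCB1.3, RBCS1A and AT3G08520, were left out of 1 setting. The higher expression minimum left out CYCD3;1. The count says nothing of a gene under a setting that left it out. No called gene reversed.

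With the replicate number as a replicate block, 3835 genes were higher and 3580 lower. Libraries with the same number share only that number: their deviations correlated at 0.196 for W and S1, 0.0211 for W and S3 and -0.00924 for S1 and S3 over 13890 genes. The block changed no call of a named gene. Leaving out genes at 0 in 1 group and at 100 FPKM or more in the other was chosen after seeing the data. Low values can be read least far in the W libraries, which the study sequenced less deeply than S1 and S3.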

Other observations

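Of the metallothioneins, small cysteine-rich proteins that bind metals, MT3, MT2A, MT2B and MT1B were called higher in S3, MT1C lower, and MT1A was not called. MT3 (AT3G15353) was at 1722 and 1719 FPKM in W and 11978 and 8777 in S3, a log2 fold change of 2.57 ± 0.25 (SE, n = 2 a group, limma adjusted p = 0.000121). MT2A (AT3G09390) stood at 629 and 1007 FPKM in W against 5297 and 5161 in S3. MT1A (AT1G07600), the most abundant transcript in S3, was at 14785 and 16565 FPKM in W and 33726 and 22174 in S3, a log2 fold change of 0.81 that did not reach the minimum of 1. MT2B (AT5G02380) rose from 978 and 1015 to 2682 and 1997 FPKM. MT1B (AT5G56795) was at 9.30 and 15.3 FPKM in W and 54.3 and 17.4 in S3, with the S3 replicates far apart (limma adjusted p = 0.044). MT1C (AT1G07610) went the other way, from 37.6 and 56.0 FPKM to 21.9 and 13.1, a log2 fold change of -1.38. GRP-3 (AT2G05520), a glycine-rich protein of the cell wall, rose from 1216 and 2139 FPKM to 7452 and 6651, and AT2G15960, named in the annotation as stress-induced, from 505 and 697 to 5890 and 4763.

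Among RNAs without a protein, 144 long non-coding RNAs were tested, of which 35 were called higher (24.3%) and 21 lower (14.6%) in S3. Of 40 miRNA precursors, 12 were called higher (30%) and 4 lower (10.0%). Of 98 transcribed pseudogenes, 26 were called higher (26.5%) and 15 lower (15.3%). Over all genes tested the shares were 21.2% and 19.8%, and nothing particular to these classes is read from the counts.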
